A study of Homo sapiens with 14 samples.

Results

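The glycine tRNAs carry 1 of 3 anticodons in these data: CCC, GCC or TCC. In the study's list of TRMT2A clusters, 28 clusters were typed as tRNA and named for a glycine tRNA. That list was made from these same libraries and kept sites that reached a minimum count in most of the experiments. Sites low in most experiments are therefore absent, and all comparisons here hold only for loci that passed. Clusters less than 40 nt apart on a strand were joined, which gave 15 glycine loci among 248 tRNA loci and 316 loci in all. Of these, 7 were tRNA-Gly-CCC, 6 were tRNA-Gly-GCC and 2 were tRNA-Gly-TCC. The data were cDNA counts per nucleotide in 14 libraries, and each locus was counted on its strand from 100 nt 5′ to 25 nt 3′ of its clusters. In FICC-Seq, the cells' own TRMT2A was precipitated from HEK293 or HAP1 cells that had received 5-fluorouracil (5FU) at 100 µM over 24 h, with 3 libraries from each cell line. In iCLIP, endogenous TRMT2A of cells without 5FU was linked to RNA by UV light and precipitated with the same antibody, again with 3 libraries from each cell line. In miCLIP, HEK293 cells were transfected with a FLAG-tagged TRMT2A whose catalytic glutamate was replaced by alanine and harvested 24 h later, with 2 libraries, so this group measures an overexpressed mutant and not the cell's own enzyme. All groups carry the normal TRMT2A gene. Both are human lines: HAP1 cells are near-haploid, and HEK293 cells derive from embryonic kidney.

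TRMT2A methylates the uridine at position 54 of cytosolic tRNAs to m5U, in the loop of the T-arm, the hairpin next to the 3′ end of a tRNA. Methylation passes through a covalent bond between the enzyme and the base, and 5-fluorouracil built into RNA holds the enzyme in that bond. The glutamate-to-alanine mutant also keeps it, since the step that releases the enzyme is lost. Reverse transcription that ends at the linked base, or just before it, leaves cDNA ends that mark position 54. A second modification of the same loop, m1A at position 58, can stop reverse transcription by itself. Glycine tRNAs decode the GGN codons, and different genes can hold an identical mature tRNA.

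The 15 loci hold 9 distinct mature sequences, which are printed here because the loci are told apart by few bases and because the loop differs at some of them. They were read from GRCh37 (hg19), from the first to the last base of the gene and without the CCA end that is added later. The first base was set where the acceptor stem formed most pairs. Capitals mark the T-loop, positions 54 to 60.
tRNA-Gly-CCC-1-1 and tRNA-Gly-CCC-1-2: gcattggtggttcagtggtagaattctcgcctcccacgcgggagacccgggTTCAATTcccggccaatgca
tRNA-Gly-CCC-2-1 and tRNA-Gly-CCC-2-2: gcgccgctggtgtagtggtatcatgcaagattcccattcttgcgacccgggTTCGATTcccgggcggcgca
tRNA-Gly-CCC-4-1: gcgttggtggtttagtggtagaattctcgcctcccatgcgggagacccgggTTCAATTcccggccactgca
tRNA-Gly-CCC-5-1: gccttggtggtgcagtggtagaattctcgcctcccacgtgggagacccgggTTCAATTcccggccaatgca
tRNA-Gly-CCC-7-1: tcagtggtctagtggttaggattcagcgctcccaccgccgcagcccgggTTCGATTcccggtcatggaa
tRNA-Gly-GCC-1-5: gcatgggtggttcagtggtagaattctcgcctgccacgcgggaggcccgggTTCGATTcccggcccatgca
tRNA-Gly-GCC-2-2, GCC-2-3, GCC-2-4 and GCC-2-6: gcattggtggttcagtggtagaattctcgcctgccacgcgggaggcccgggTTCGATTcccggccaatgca
tRNA-Gly-GCC-4-1: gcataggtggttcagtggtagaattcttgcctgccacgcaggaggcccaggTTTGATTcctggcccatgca
tRNA-Gly-TCC-2-1 and tRNA-Gly-TCC-2-6: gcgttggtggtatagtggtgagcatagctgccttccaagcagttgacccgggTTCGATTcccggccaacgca

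All 15 genes have T at position 54 and A at position 58. In standard tRNA numbering, and with the base of the commonest loop first, tRNA-Gly-CCC-1-1, CCC-1-2, CCC-4-1 and CCC-5-1 differ from that loop by G57A. Of the glycine loci, tRNA-Gly-GCC-4-1 alone differs by C56T. The acceptor stem, which joins the ends of the tRNA, has 7 Watson-Crick or G-T pairs in 11 of the genes and 6 in tRNA-Gly-CCC-4-1, CCC-5-1, CCC-7-1 and GCC-4-1. The T-stem has 5 pairs in all 15. The anticodon does not follow the rest of the sequence: tRNA-Gly-CCC-1-1 differs from the tRNA-Gly-GCC-2 sequence at 3 of 71 bases but from tRNA-Gly-CCC-2-1 at 23.

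On chromosome 1, the CCC genes lie close together: CCC-1-1 at chr1:16872434-16872504 (minus strand), CCC-4-1 at chr1:17004766-17004836 (minus), CCC-5-1 at chr1:17053780-17053850 (plus) and CCC-1-2 at chr1:17188416-17188486 (plus), where CCC-1-2 is in an intron of CROCC and the others are intergenic. On the same chromosome are TCC-2-1 at chr1:145397864-145397935 (minus), intergenic and 315 nt from HJV, GCC-4-1 at chr1:161450356-161450426 (plus), intergenic, and TCC-2-6 at chr1:161500903-161500974 (plus), in an intron of a long non-coding RNA. On chromosome 2 are CCC-7-1 at chr2:11691830-11691898 (plus), in an intron of GREB1, CCC-2-1 at chr2:70476123-70476193 (minus), 331 nt from TIA1, and GCC-2-2 at chr2:157257659-157257729 (minus), intergenic. CCC-2-2 lies at chr16:686736-686806 (minus), 11 nt from MCRIP2, and GCC-2-4 at chr16:70812942-70813012 (minus), in an intron of VAC14. GCC-2-3 at chr6:27870686-27870756 (minus), GCC-2-6 at chr17:8029064-8029134 (plus) and GCC-1-5 at chr21:18827107-18827177 (minus) are intergenic.

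The libraries held between 7002 and 104605 cDNA counts. FICC-Seq libraries had 15982 to 38957, iCLIP libraries 7002 to 17432 and miCLIP libraries 39024 and 104605. A count of 0 therefore allows up to 3 counts, which is between 28.7 CPM in the deepest library and 428 CPM in the shallowest, where CPM relates a count to all counts of its library. Cell line cannot be told apart from sequencing run, since the runs named in the data hold 1 cell line each, and miCLIP had a run of its own. The labels call replicates separate samples and do not say whether they came from separate cultures, so p-values measure the spread between these libraries.

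Glycine loci took a larger share of the tRNA counts in FICC-Seq than in iCLIP. In FICC-Seq the share was 4.88%, 5.50% and 4.92% in the HEK293 libraries and 4.47%, 4.35% and 6.17% in the HAP1 libraries. In iCLIP it was 2.13%, 3.05% and 2.86% in HEK293 and 2.60%, 3.36% and 2.79% in HAP1. All 6 FICC-Seq libraries lay above all 6 iCLIP libraries, and the miCLIP libraries, at 4.96% and 3.77%, also lay above them. The means of FICC-Seq and iCLIP differed by 2.25 percentage points (exact permutation test within cell line, two-sided p = 0.005, adjusted p = 0.0171 over 24 tests, n = 6 and 6). Within HEK293 the difference was 2.42 points and within HAP1 2.08. These are shares of a total, so a glycine share can rise because another family falls: the leucine tRNAs, which held most tRNA counts, took 29.6% in FICC-Seq and 47.1% in iCLIP, and the tyrosine tRNAs, next in FICC-Seq, took 11.6% and 5.26%. Glycine was the seventh of the amino acid families by its FICC-Seq share.

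The 15 loci differed widely in their counts. Over the 6 FICC-Seq libraries they held 7029 counts, from 111 at tRNA-Gly-CCC-2-2 to 2072 at tRNA-Gly-GCC-2-3. The 4 loci with the GCC-2 sequence together took 52.6% of them, and GCC-2-3 alone 29.5%. GCC-2-3 held 250, 171 and 437 counts in the FICC-Seq libraries of HEK293 (12203 ± 2745 CPM, SD) and 256, 324 and 634 in those of HAP1 (11295 ± 4317 CPM). Next came tRNA-Gly-GCC-1-5 with 6418 ± 529 CPM in HEK293 and 6110 ± 1238 in HAP1, and GCC-2-6 with 6383 ± 1677 and 5049 ± 649 (SD, n = 3 each). These 2 loci overlapped each other in both cell lines, and GCC-2-3 lay above both in every FICC-Seq library. The other loci had group means between 236 and 3270 CPM in FICC-Seq. Fewer molecules of a tRNA and less capture per molecule cannot be told apart in such counts.

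**Figure D1:**
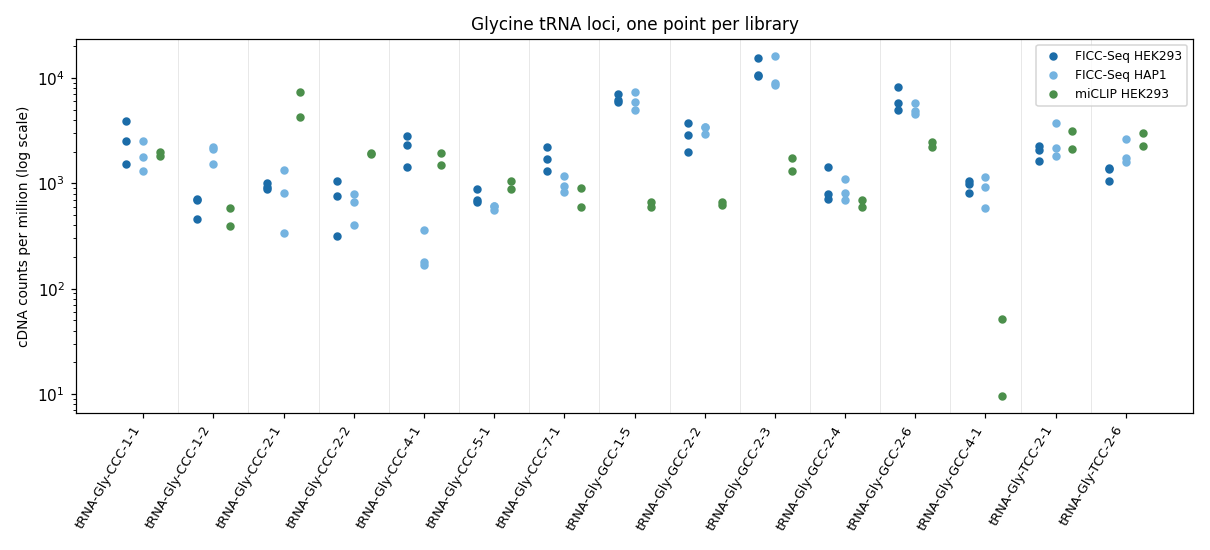
CPM of cDNA counts (log axis) at each of the 15 glycine tRNA loci, with a point per library. Colours mark FICC-Seq of HEK293, FICC-Seq of HAP1 and miCLIP of HEK293, and iCLIP is not drawn. tRNA-Gly-GCC-2-3 is the highest locus in FICC-Seq, at 8611 to 16274 CPM, tRNA-Gly-CCC-2-1 lies higher in miCLIP than in FICC-Seq of HEK293, and GCC-1-5, GCC-2-3 and GCC-4-1 lie lower.

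By isoacceptor, GCC held most glycine counts with endogenous TRMT2A. Its share in FICC-Seq was 67.4%, 67.9% and 74.5% in HEK293 and 73.1%, 67.3% and 70.2% in HAP1. In iCLIP it was 64.1%, 60.4% and 74.3% in HEK293 and 54.2%, 58.8% and 63.1% in HAP1. The ranges overlapped, through the iCLIP HEK293 library at 74.3%. The difference of 7.58 points was not called (exact permutation p = 0.03, adjusted p = 0.0577). CCC took 20.3% of glycine counts in FICC-Seq and 24.8% in iCLIP on average (exact permutation, adjusted p = 0.164), and TCC 9.61% and 12.7% (adjusted p = 0.111, exact permutation). Both pairs of ranges overlapped as well.

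The TCC share was lower in HEK293 than in HAP1. In FICC-Seq it was 7.53%, 7.70% and 7.69% in HEK293 and 11.3%, 10.6% and 12.9% in HAP1. In iCLIP it was 5.39%, 12.1% and 6.42% in HEK293 and 16.9%, 15.5% and 20% in HAP1. Within each method no HEK293 library reached a HAP1 library. The difference was −6.71 points over both methods (exact permutation within method, p = 0.005, adjusted p = 0.0171, n = 6 and 6), −3.93 within FICC-Seq and −9.49 within iCLIP. The iCLIP shares rest on 7 to 30 TCC counts per library. CCC and GCC differed by 3.07 and 3.64 points between the cell lines, with overlapping ranges (exact permutation, adjusted p = 0.305 and 0.291). The CCC difference was 4.22 points within FICC-Seq and 1.92 within iCLIP. The GCC difference was −0.28 points within FICC-Seq and 7.57 within iCLIP, so its sign differed between the methods.

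In miCLIP the order of the isoacceptors was another. CCC held 57.4% and 52.1% of glycine counts, against 25.1%, 24.4% and 17.8% in FICC-Seq of HEK293. GCC held 20.3% and 27.7%, and TCC 22.3% and 20.2%. CCC was thus first in both miCLIP libraries, and the miCLIP and FICC-Seq HEK293 ranges did not overlap for any isoacceptor. These shares leave out 2 exact copies of the GCC-2 sequence that are not in the list. The copies held 356 and 81 miCLIP counts, beside 850 at the GCC loci. In FICC-Seq of HEK293 they held 536 and 21, beside 2017. With them the GCC share would be higher and the CCC and TCC shares lower. The mean differences, miCLIP minus FICC-Seq, were 32.3 points for CCC, −45.9 for GCC and 13.6 for TCC. With 2 against 3 libraries the exact permutation test cannot give a p below 0.1, which is what all 3 had. The mutant protein, its overexpression, the FLAG antibody and the run cannot be told apart from the method here.

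**Figure D2:**
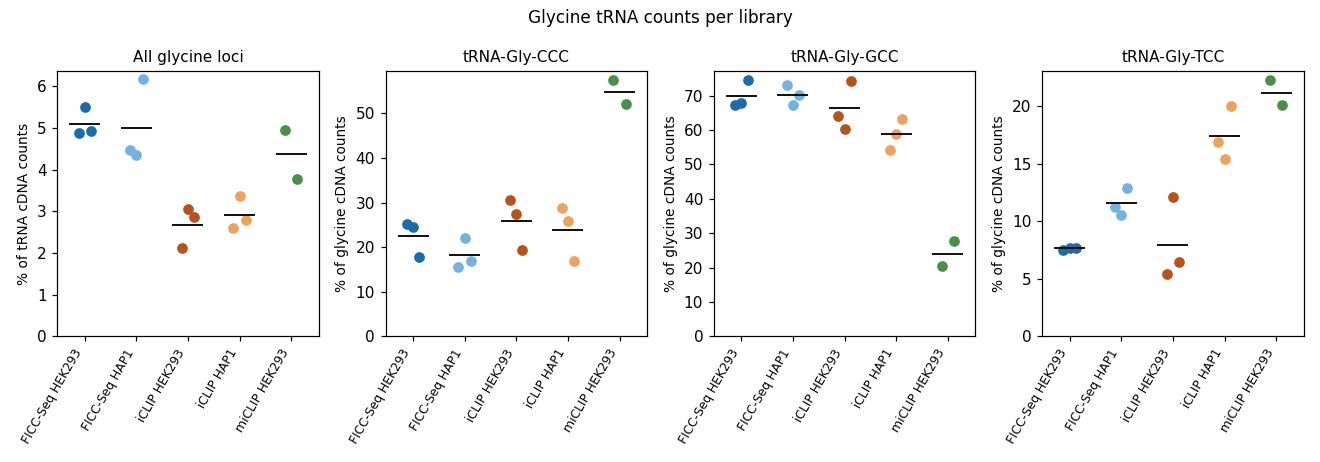
Share of tRNA counts at glycine loci and share of glycine counts at each isoacceptor, in percent, with a point per library and the mean of each of the 5 groups. Glycine shares are above 4.3% in FICC-Seq and below 3.4% in iCLIP, and CCC exceeds 52% of glycine counts only in miCLIP.

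Along the tRNA, FICC-Seq counts piled up at the methylated base. By the convention of such data a cDNA is counted at the nucleotide next to its end, so position 54 takes cDNAs that stopped just before the linked base and position 53 those that also copied it. Positions were set from the T-loop sequence of each gene. Of all glycine counts, positions 53 and 54 together held 70.7%, 67.5% and 78.0% in FICC-Seq of HEK293 and 72.3%, 68.6% and 71.6% in HAP1. In iCLIP they held 15.0%, 26.2% and 12.8% in HEK293 and 19%, 42.3% and 13.1% in HAP1. No iCLIP library came near the lowest FICC-Seq library, although 1 HAP1 library, replicate 2, stood far above the other iCLIP libraries. The difference was 50.1 points (exact permutation, p = 0.005, adjusted p = 0.0171, n = 6 and 6), 54.1 within HEK293 and 46.1 within HAP1. In miCLIP the share was 68.5% and 61.8%.

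Each isoacceptor showed this difference. The mean share at 53 and 54 was 82.0% in FICC-Seq and 18.6% in iCLIP for CCC, 67% and 21.5% for GCC and 81.0% and 30.5% for TCC. All 3 had FICC-Seq ranges apart from the iCLIP ranges and an adjusted p of 0.0171 (exact permutation, n = 6 and 6). Position 53 held more counts than position 54 at all 15 loci in FICC-Seq counts pooled over both cell lines, but to different extents. Their ratio was 1.02 at tRNA-Gly-CCC-2-1 (62 and 61 counts) and 6 at CCC-5-1 (90 and 15). In HAP1 alone position 53 also held more at each locus. In HEK293 alone the order was turned at CCC-1-1 (53 and 62 counts), CCC-2-1 (15 and 33) and TCC-2-1 (52 and 56). In iCLIP the order was turned in the pooled glycine counts, with 26 counts at 53 and 52 at 54 in HEK293, and 42 and 84 in HAP1. GCC held most of this, with 7 and 37 in HEK293 and 19 and 61 in HAP1. CCC had 9 and 12, and 11 and 13. TCC kept the FICC-Seq order, with 10 and 3, and 12 and 10.

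Position 58 was the next site in FICC-Seq. Its share of all glycine counts was 19.98%, 23.4% and 15.9% in HEK293 and 13.5%, 15.5% and 19.7% in HAP1. In iCLIP it was 44.3%, 34.2% and 26.6% in HEK293 and 19%, 16.5% and 23.1% in HAP1. The iCLIP libraries of HEK293 lay above all FICC-Seq libraries, and those of HAP1 lay among them. The difference over both cell lines was −9.28 points and missed the threshold (exact permutation p = 0.02, adjusted p = 0.0533). It was −15.3 points within HEK293 and −3.26 within HAP1.

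The isoacceptors were not alike at position 58. For CCC the share was 11.8% in FICC-Seq and 42.5% in iCLIP, with no overlap between libraries (difference −30.7 points, exact permutation, adjusted p = 0.0171). For GCC it was 20.3% and 21.5%, and the difference of −1.11 points had opposite signs in HEK293 (−6.97) and HAP1 (4.76) (exact permutation, adjusted p = 0.815). For TCC it was 14.7% and 25.6% (difference −10.9, adjusted p = 0.0533, exact permutation). Whether these differences between methods themselves differ between isoacceptors was not tested.

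Within the FICC-Seq libraries the share of GCC counts at 53 and 54 lay below that of the other isoacceptors, with no adjusted p under 0.05. Its share at 53 and 54 was below that of CCC in 6 of 6 libraries, by 14.9 ± 3.0 points (SD), and below that of TCC in 6 of 6, by 14 ± 3.0 points. Its share at 58 was above that of CCC in 6 of 6, by 8.59 ± 3.63 points. Against TCC at 58 it was higher in 4 of 6, by 5.67 ± 5.94 points (exact sign-flip permutation p = 0.125, adjusted p = 0.164). An exact sign-flip permutation test over 6 libraries cannot go below p = 0.03125, which the first 3 comparisons reached, and their adjusted p was 0.0577. The difference from TCC at 53 and 54 was 0.68 points in the other direction when position 53 was placed by the FICC-Seq counts of the other cell line. CCC and TCC differed by 0.96 ± 2.56 points at 53 and 54, with TCC higher in 2 of 6 (exact sign-flip permutation p = 0.4375). The loci of an isoacceptor were not alike. In pooled FICC-Seq counts the GCC share at 53 and 54 ran from 5.73% (GCC-4-1) to 81.2% (GCC-2-4). For CCC it ran from 72.3% (CCC-1-2) to 95.1% (CCC-7-1), and the TCC loci had 79.3% and 84.7%.

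**Figure D3:**
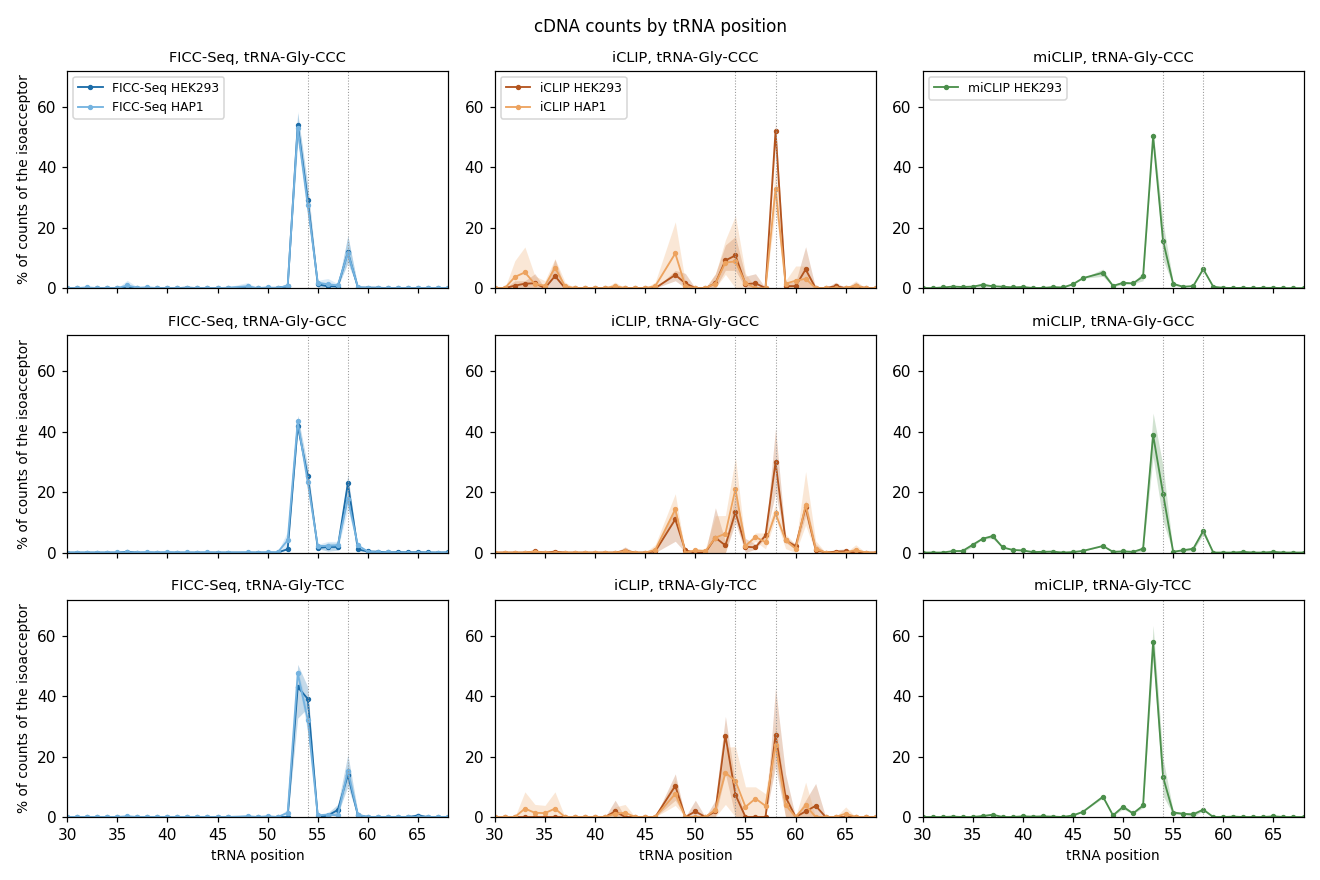
Share of glycine cDNA counts (percent) by tRNA position around the T-loop, for each isoacceptor and group, as means over libraries. FICC-Seq and miCLIP peak at positions 53 and 54, and iCLIP spreads over 54, 58 and the positions around them.

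The iCLIP counts that did not lie at 53, 54 or 58 spread over other parts of the tRNA. Positions 44 to 48, the variable region before the T-arm, held 9.54 ± 4.51% of glycine counts in HEK293 and 13.4 ± 5.1% in HAP1 (SD, n = 3). In FICC-Seq of HEK293 they held 0 of 2866 counts, which allows up to 0.105%, and in HAP1 0.33 ± 0.57%. Positions 59 to 65 held 18.6 ± 3.4% and 17.1 ± 6.1% in iCLIP, mostly from GCC loci, against 1.62 ± 0.33% and 2.15 ± 0.14% in FICC-Seq. The anticodon loop, positions 32 to 38, held 18.5 ± 7.8% of the CCC counts in iCLIP of HAP1, from 19 counts, and 7.85 ± 6.18% in HEK293, from 7 counts. For CCC in FICC-Seq it was 0.18 ± 0.31% in HEK293 and 1.48 ± 2.57% in HAP1. In miCLIP the anticodon loop held 15.3 ± 0.4% of GCC counts and 3.73 ± 1.38% of CCC counts (SD, n = 2). These classes were not tested.

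Single loci departed from this pattern. Over the pooled FICC-Seq libraries, the 11 loci with 7 acceptor pairs had between 12.5% and 19.98% of their counts at position 58 and between 66.5% and 84.7% at 53 and 54. The 4 loci with 6 acceptor pairs lay outside both ranges, 3 of them in 1 direction and 1 in the other. Numbers of this kind come from pooled counts, and their 95% exact binomial (Clopper-Pearson) intervals cover counting error only. Acceptor pairs were counted at the glycine loci only, and whether they bear on these shares was not tested.

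At tRNA-Gly-CCC-7-1, 0 of 225 FICC-Seq counts lay at position 58, which allows up to 1.33%, and 95.1% (91.4% to 97.5%) lay at 53 and 54. None of the 6 libraries had a count at 58, with 53, 21 and 49 counts at the locus in HEK293 and 28, 42 and 32 in HAP1. In iCLIP 0 of 19 counts lay at 58 (up to 15.8%) and in miCLIP 0 of 97. As placed here this gene has 69 bases, the shortest length tried, so its start and its 6 acceptor pairs are less sure. It lies in an intron of GREB1. At tRNA-Gly-CCC-4-1, 4 of 166 FICC-Seq counts lay at 58 (2.41%) and 92.8% (87.7% to 96.2%) at 53 and 54. At tRNA-Gly-CCC-5-1, 3 of 113 lay at 58 (2.65%) and 92.9% (86.5% to 96.9%) at 53 and 54. At CCC-4-1 and CCC-5-1 the low share did not extend to iCLIP, where 7 of 22 and 3 of 14 counts lay at 58. The G57A difference does not separate these loci, since tRNA-Gly-CCC-1-1 and CCC-1-2 share it and had 19.9% and 19.3% at 58.

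tRNA-Gly-GCC-4-1 showed the reverse. Of its 157 FICC-Seq counts, 112 (71.3%) lay at position 58 and 9 (5.73%, 2.65% to 10.6%) at 53 and 54. At 58 it had 21 of 25, 12 of 13 and 23 of 28 counts in the HEK293 libraries and 18 of 34, 15 of 21 and 23 of 36 in the HAP1 libraries. Position 58 thus held more than 52% in each FICC-Seq library, and positions 53 and 54 held at most 14.3%. In iCLIP 17 of 34 counts lay at 58 and 0 at 53 and 54, which allows up to 8.82%. In miCLIP the locus had 2 counts in one library and 1 in the other, none at 53 or 54. This is the locus with the C56T difference in its loop.

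**Figure D4:**
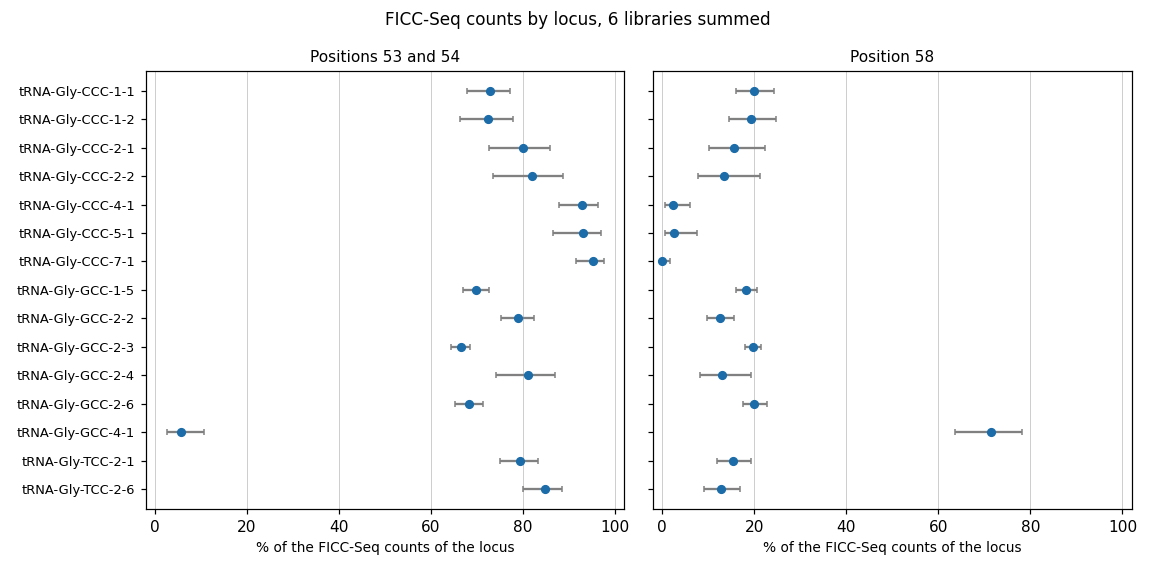
Share of pooled FICC-Seq counts (percent) at positions 53 and 54 and at position 58 for each of the 15 glycine loci, with 95% exact binomial intervals. tRNA-Gly-GCC-4-1 lies at 5.73% for 53 and 54 and 71.3% for 58, and CCC-4-1, CCC-5-1 and CCC-7-1 lie above 92% and below 3%.

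Neither departure was particular to glycine. Among the 174 other tRNA loci with at least 30 FICC-Seq counts and a placed T-loop, the median share was 70.4% at 53 and 54 and 12.6% at 58. At 34 of them the share at 58 was below 3%, and at 2 the share at 53 and 54 was below 10%. Counting glycine, 4 loci had T at position 56. Of these, tRNA-Gly-GCC-4-1 and a leucine locus with a TAA anticodon had 5.73% and 8.82% at 53 and 54 and 71.3% and 86.3% at 58, while 2 loci without an isoacceptor name had 96.2% and 98.0% at 53 and 54 and 0.376% and 0 at 58. At the unnamed locus with 96.2% the T-loop was placed on 4 T-stem pairs, the fewest allowed. Whether the base at position 56 bears on these shares was not tested.

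Counts per locus were compared over all loci with limma on log2 CPM with voom weights and TMM scaling, which sets the counts of most loci level between libraries. Of 311 loci tested, 177 (56.9%) were called, 67 (21.5% of those tested) higher and 110 (35.4%) lower in FICC-Seq than in iCLIP. Of the 15 glycine loci, 5 were higher and 0 lower, and 13 of 15 had a positive log2 fold change. The median was 0.67 over glycine loci, −0.11 over tRNA loci and −0.32 over all. The scale of this comparison is not settled: with library totals alone the median of all loci moved up by 0.61, the split of all calls became 100 higher and 84 lower, and 10 glycine loci were called higher and 0 lower.

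The largest increase of a glycine locus was at tRNA-Gly-GCC-2-2, with 69, 60 and 56 counts in FICC-Seq of HEK293 and 101, 107 and 134 in HAP1, against 6, 7 and 3 and 6, 11 and 7 in iCLIP (log2 fold change 1.51, SE 0.30, limma adjusted p = 0.000295). tRNA-Gly-CCC-7-1 rose by 1.26 (SE 0.39, limma adjusted p = 0.00944), GCC-1-5 by 1.24 (SE 0.23, adjusted p = 0.000159), GCC-2-6 by 1.10 (SE 0.24, adjusted p = 0.000539) and GCC-2-3 by 0.96 (SE 0.24, adjusted p = 0.0021). Thus 4 of the 6 GCC loci, 1 of the 7 CCC loci and 0 of the 2 TCC loci were called. Among all loci, 67 of 311 (21.5%) were called higher. The called loci GCC-2-2, GCC-2-3 and GCC-2-6 have an identical mature sequence. With library totals alone 10 glycine loci were called higher, so the split by isoacceptor changes with the scaling. Whether the isoacceptors differ in this was not tested. The lowest value was −0.59 at tRNA-Gly-CCC-2-2 (SE 0.43, limma adjusted p = 0.262).

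In FICC-Seq, a pair of CCC genes of the cluster on chromosome 1 differed between the HEK293 and HAP1 libraries, where cell line and run cannot be told apart. tRNA-Gly-CCC-4-1 had 55, 45 and 41 FICC-Seq counts in HEK293 (2192 ± 695 CPM, SD, n = 3) and 5, 13 and 7 in HAP1 (236 ± 108 CPM). tRNA-Gly-CCC-1-2 had 11, 11 and 20 counts in HEK293 (619 ± 134 CPM) and 45, 76 and 86 in HAP1 (1944 ± 376 CPM). The first was high in HEK293 and the second in HAP1, with no overlap of counts or CPM. The log2 fold change of HEK293 over HAP1 was 2.98 for CCC-4-1 (SE 0.46, limma adjusted p = 0.000304) and −1.78 for CCC-1-2 (SE 0.37, limma adjusted p = 0.00283). These were 2 calls among 15 glycine loci, near the 11.3% called among all loci (35 of 311), 1 in each direction against 5.47% higher and 5.79% lower.

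The gene tRNA-Gly-CCC-1-1 has the mature sequence of CCC-1-2 and did not share its difference. It had 60, 63 and 43 counts in HEK293 (2661 ± 1220 CPM) and 39, 64 and 98 in HAP1 (1868 ± 607 CPM), with a log2 fold change of 0.23 (SE 0.31, limma adjusted p = 0.758). The CPM of the cell lines overlapped. Uniquely mapped reads tell these copies apart only by bases outside the mature tRNA, and the genome bases that follow are AGAGGGTCTT after CCC-1-1 and AAAGGGTCTT after CCC-1-2. Whether some reads were placed at the wrong copy was not tested.

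In iCLIP these loci held few counts. tRNA-Gly-CCC-4-1 had 8, 3 and 5 counts in HEK293 and 1, 4 and 1 in HAP1, and CCC-1-2 had 10, 3 and 2 and 5, 5 and 2. Their log2 fold changes were 1.39 (SE 0.69, limma adjusted p = 0.508) and 0.20 (SE 0.65, limma adjusted p = 0.958). By limma, 0 glycine loci were called in iCLIP, where 1 of 311 loci (0.322%) was called. Without adjustment 1 glycine locus, tRNA-Gly-TCC-2-6, had a limma p under 0.05 (log2 fold change −1.95, SE 0.64, adjusted p = 0.243), and limma-trend called 1. The test of whether the cell line difference itself differed between the methods gave 0 calls by limma among 311 loci (0%), with 28 at an unadjusted p under 0.05. Of glycine loci, CCC-1-2 was the one among the 28 (difference −1.98, SE 0.75, limma adjusted p = 0.382), and CCC-4-1 had a difference of 1.59 (SE 0.83, limma adjusted p = 0.576). At this depth the iCLIP libraries could not show whether the FICC-Seq difference was present there.

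Between miCLIP and FICC-Seq in HEK293, glycine loci moved in both directions. Of all loci, 234 of 311 (75.2%) were called, 135 (43.4% of those tested) higher and 99 (31.8%) lower in miCLIP. Of the 15 glycine loci, 4 were higher and 6 lower. The median log2 fold change was −0.06 over glycine loci and 0.90 over tRNA loci. The FICC-Seq HEK293 libraries here are also part of the comparison with iCLIP.

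The loci that were higher in miCLIP carried CCC or TCC. tRNA-Gly-CCC-2-1 had 288 and 449 counts in miCLIP (7380 and 4292 CPM) against 22, 16 and 25 in FICC-Seq (927, 1001 and 879 CPM), and it held 22.0% of the glycine counts of miCLIP. Its log2 fold change was 2.91 (SE 0.38, limma adjusted p = 2.28e-06). Its copy CCC-2-2, with the same mature sequence, rose by 2.01 (SE 0.44, limma adjusted p = 0.000421). TCC-2-6 rose by 1.40 (SE 0.33, limma adjusted p = 0.000738) and TCC-2-1 by 0.74 (SE 0.30, limma adjusted p = 0.031). The last call was lost with library totals (0.28, adjusted p = 0.457), with tRNA loci alone and without 1 of several libraries. The CCC genes of chromosome 1 did not pass the test, with log2 fold changes of 0.05 at CCC-1-1, −0.06 at CCC-1-2, 0.08 at CCC-4-1 and 0.71 at CCC-5-1.

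The loci that were lower in miCLIP were 5 of the 6 GCC loci and tRNA-Gly-CCC-7-1. tRNA-Gly-GCC-1-5 had 26 and 62 counts in miCLIP (666 and 593 CPM) against 142, 112 and 178 in FICC-Seq (5986, 7008 and 6261 CPM), a log2 fold change of −2.95 (SE 0.30, limma adjusted p = 1.86e-07). GCC-2-3 fell by 2.57 (SE 0.34, limma adjusted p = 2.76e-06), GCC-2-2 by 1.69 (SE 0.29, adjusted p = 4.85e-05) and GCC-2-6 by 1.00 (SE 0.25, adjusted p = 0.00124). These 3 loci and GCC-2-4, with −0.14 (SE 0.44, limma adjusted p = 0.783), have an identical mature sequence, so copies of 1 tRNA spanned from −2.57 to −0.14. CCC-7-1 fell by 0.94 (SE 0.34, limma adjusted p = 0.0172), a call lost with a replicate block (adjusted p = 0.0694), with limma-trend and without 1 of several libraries.

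tRNA-Gly-GCC-4-1 had the lowest value, with 2 and 1 counts in miCLIP (51.3 and 9.56 CPM) against 25, 13 and 28 in FICC-Seq (1054, 813 and 985 CPM). The ratio of the pooled CPM, FICC-Seq over miCLIP, was 46.4, with a 95% exact counting interval from 15.2 to 231. The ratio rests on 3 miCLIP counts, and it was 101 (17.6 to 4062) without miCLIP replicate 1 and 18.9 (5.03 to 159) without replicate 2. The limma log2 fold change was −4.69 (SE 0.93, adjusted p = 0.00018). It was −5.62 without replicate 1 and −3.62 without replicate 2 (limma, adjusted p = 0.00148 and 0.0201). This is the locus whose FICC-Seq counts lay at position 58, and at 53 and 54 it had 2 FICC-Seq counts in HEK293 and 0 in miCLIP.

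The GCC-2 sequence stands 6 times in the genome, and 4 of these copies are glycine loci of the list. Since the mature part is identical, the 10 genome bases behind it are printed in capitals after the bases from position 54 on, to show what tells the copies apart.
tRNA-Gly-GCC-2-2: ttcgattcccggccaatgcaAGTTTTGACT
tRNA-Gly-GCC-2-3: ttcgattcccggccaatgcaACGATGACGT
tRNA-Gly-GCC-2-4: ttcgattcccggccaatgcaGCAGCTGAAA
tRNA-Gly-GCC-2-6: ttcgattcccggccaatgcaCGAGTACAGT
copy on chromosome 1: ttcgattcccggccaatgcaCTTTCATTTT
copy on chromosome 16: ttcgattcccggccaatgcaGCAGCAGACC

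Reads of a mature GCC-2 tRNA that end in the added CCA map uniquely only if a copy fits them best, within the 2 mismatches the mapping allowed. Of the 3 bases behind the gene, GCC-2-4, GCC-2-6 and the chromosome 16 copy match CCA at 2. GCC-2-3 and the chromosome 1 copy match at 1, and GCC-2-2 at 0. FICC-Seq counts were 154 at GCC-2-4, 946 at GCC-2-6 and 42 at the chromosome 16 copy. They were 2072 at GCC-2-3, 1356 at the chromosome 1 copy and 527 at GCC-2-2. How the counts of the copies depend on these bases was not tested. The mature sequences of GCC-1-5 and the TCC-2 loci stand 5 and 6 times in the genome. The other 4 copies of each lie on chromosome 1, share at least 60 bases behind the gene with another copy and held 0 FICC-Seq counts, so these tRNAs were counted only at the loci with flanks of their own. Counts at a locus therefore belong to a sequence with its flank and not to the transcripts of 1 gene with certainty.

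The glycine loci were set beside the other tRNAs. At 53 and 54 the glycine share was above theirs in 6 of 6 FICC-Seq libraries and in both miCLIP libraries. The share of counts at 53 and 54 at the 225 other tRNA loci with a placed T-loop was 70.6 ± 5.3% in FICC-Seq of HEK293, 65.5 ± 3.7% in HAP1, 20.2 ± 7.2% and 21.9 ± 7.4% in iCLIP and 44.9 ± 3.0% in miCLIP (SD). The glycine means were 72.1 ± 5.4%, 70.8 ± 2.0%, 18 ± 7.2%, 24.8 ± 15.4% and 65.2 ± 4.7%. In both miCLIP libraries the glycine share, at 68.5% and 61.8%, was above that of the other tRNAs. At position 58 the glycine share in iCLIP was above that of the other tRNAs in 3 of 3 HEK293 libraries, with means of 35.05% and 26.2%, and below it in 3 of 3 HAP1 libraries, with means of 19.5% and 26.02%. These differences were not tested. Of 33 other isoacceptor families with at least 2 loci, at least 100 FICC-Seq counts and a count in every library, the nearest to glycine in this share over the 14 libraries, by Euclidean distance, were tRNA-Ile-AAT (distance 19.2 percentage points), tRNA-Glu-TTC (27.8) and tRNA-Ser-GCT (29.8). Their shares at 53 and 54 in FICC-Seq, iCLIP and miCLIP were 69.7%, 22.6% and 64% for tRNA-Ile-AAT, 75.8%, 23.2% and 56.6% for tRNA-Glu-TTC and 63.7%, 19.1% and 55.7% for tRNA-Ser-GCT.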

How the data were processed

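The authors deposited, for each library, signed whole numbers of cDNA counts per nucleotide, the sign giving the strand. Per the study's methods and the file headers, the iCount web server removed PCR duplicates by random barcode, mapped reads to hg19 with bowtie with at most 2 mismatches and kept uniquely mapping reads, and the counts were not scaled. Duplicate removal rests on 5 random bases, so high positions can be undercounted, and intervals and limits cover counting error only.

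Here absolute counts were summed per locus and position. Position 53 was read from the T-loop sequence at 240 of 248 tRNA loci, with at least 4 T-stem pairs. Libraries were the unit, grouped by the labels' method and cell line. Shares were compared by exact permutation tests, two-sided and adjusted by Benjamini-Hochberg over 24 tests. Loci with at least 5 counts in 2 libraries (311 of 316) were tested with limma-voom and TMM scaling in 1 fit of 5 groups, and an adjusted p under 0.05 was a call. A negative binomial model had been planned, and limma on the absolute counts took its place. The sign marks only the strand and did not prevent such a model. All glycine loci are named, with the 3 families nearest in share at 53 and 54 and the 2 other amino acid families with most FICC-Seq tRNA counts. Members and lists were chosen with earlier results of these data known. The loci with T at position 56 were looked up after values were seen. The labels call FICC-Seq samples Untreated in 1 field and exposed to 5-fluorouracil in another, and the second was taken. They give FICC-Seq HEK293 replicates 1 and 3 the same barcode. The chi-square of their locus counts, divided by its degrees of freedom, was 2.15, against 4.64 to 7.90 for the other FICC-Seq pairs. As this exceeds sampling noise, as in all replicate pairs, none was taken as a duplicate. Alternatives covered the count minimum, barcode collisions, the window, locus weights, the placement of position 53, the scaling, the filter, the tRNA loci alone, a replicate block and each replicate left out. The steps were tested on simulated data. Gene positions came from GENCODE mapped to GRCh37. Tests ran in R 4.3.3 with limma 3.58.1 and in Python 3.11.15 with scipy 1.17.1 and numpy 2.4.6, beside pysam 0.24.0, pandas 2.3.3 and, for figures, matplotlib 3.10.9.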

Additional observations from a re-analysis of the deposited data

Results flagged for a closer look

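Counts were found at 2 exact copies of the tRNA-Gly-GCC-2 sequence that are not among the clusters of the list as used here, which makes them a signal outside the data of the report. The copy at chr1:161493637-161493707 (minus strand, opposite an exon of FCGR2A) had 1356 FICC-Seq counts, 200, 141 and 195 in the HEK293 libraries and 250, 252 and 318 in the HAP1 libraries. Of these, 69.4% lay at positions 53 and 54 and 18.1% at position 58. It had 74 and 84 counts in iCLIP of HEK293 and HAP1 and 356 in miCLIP. The copy at chr16:70823410-70823480 (plus strand, opposite an intron of VAC14) had 42 FICC-Seq counts, 73.8% of them at 53 and 54, 1 in iCLIP and 81 in miCLIP. There are no control samples, and both totals are above the 3 counts that a count of 0 allows. No value of a group of 3 or fewer libraries could be tested for an outlying library.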

How the results depend on the processing

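Of 733 values under alternatives, 687 kept their direction and side of the threshold, 18 lost a call, 14 gained one, 4 changed sign and 10 counts moved by more than 1.5 times. Whether the replicate numbers pair FICC-Seq with iCLIP libraries is not settled. Deviations of same-numbered libraries correlated at 0.19, 0.097 and −0.080 in HEK293 and 0.091, 0.24 and 0.11 in HAP1, across 251 loci. Libraries with different numbers were not compared in this way. With a replicate block the differences of 2.25 (glycine share), 50.1, 63.3, 45.5 and 50.5 (53 and 54: all, CCC, GCC, TCC) and −30.7 points (58, CCC) had an exact p of 0.03125, the smallest it can give, and an adjusted p of 0.0577. The block left 5, 2 and 9 glycine loci called for FICC-Seq over iCLIP, HEK293 over HAP1 in FICC-Seq and miCLIP over FICC-Seq. With position 53 alone, the TCC difference was 24.5 points and lost its call. The GCC share gained a call without tRNA-Gly-GCC-2-3 (9.42 points). At position 58 the glycine difference gained a call with at least 2 counts per position (−14.5), the collision correction (−9.47), the narrower window (−9.78), equal locus weights (−12.8) and, chosen after seeing the data, without GCC-4-1 (−9.94). The TCC difference did so with at least 2 counts (−29.8) and the narrower window (−13.5). The GCC difference at 58 changed sign with equal weights (1.73), and GCC minus TCC at 53 and 54 with position 53 placed by the other cell line (0.68).

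Leaving out 1 library, the GCC share difference ranged from 6.11 to 9.59 points, gaining a call without iCLIP HEK293 replicate 3. The difference at 58 ranged from −11.4 to −6.96 for all glycine, from −3.65 to 1.69 for GCC, with a change of sign without FICC-Seq HEK293 replicate 3 or iCLIP HEK293 replicate 1, and from −13.5 to −6.98 for TCC. The called loci between HEK293 and HAP1 ranged from 23 (without FICC-Seq HEK293 replicate 1) to 40 in FICC-Seq and from 1 to 2 in iCLIP, and those of the difference between methods from 0 to 2. With library totals, 10 glycine loci were called for FICC-Seq over iCLIP and 4 of all loci for the cell lines in iCLIP. That last count was 3 with tRNA loci alone. With limma-trend, chosen after seeing the data, 20 loci were called for the cell lines in FICC-Seq and 8 in iCLIP, 1 of them glycine. Of the calls of single glycine loci, those of TCC-2-1 and CCC-7-1 for miCLIP were lost under some alternatives and the others kept theirs. Adding the further GCC-2 copies, also chosen afterwards, changed no call, and for the miCLIP shares no call was possible. The causes were not tested. The DESeq2 alternative was not run. Depth limits iCLIP most, where a glycine locus had at most 51 counts in a library.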
